A study of Mus musculus with 13 samples.

Results

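Importins carry proteins with a nuclear localization signal through the nuclear pore. The importin alpha genes Kpna1, Kpna2, Kpna3, Kpna4, Kpna6 and Kpna7 encode adaptors that bind the signal of the cargo, and Kpnb1 encodes importin beta1, which binds the adaptor and carries the complex through the pore. These 7 genes were found by their symbols among the 18939 genes with counts and the 49686 features with FPKM values, and all 7 were present in each table. They were chosen with their levels in these libraries already known, so their levels and their changes are given here as a description. Calls on them are counted only beside those of all genes, and nothing is read from them.

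The libraries came from 13 single mouse oocytes, of which 3 were SN GV oocytes, 3 were NSN GV oocytes, 4 were SN-MII oocytes and 3 were NSN-MII oocytes. GV oocytes, still in prophase with an intact nucleus (germinal vesicle), are called SN when chromatin surrounds the nucleolus and NSN when it does not, and MII oocytes are mature eggs held at metaphase of the second meiotic division. The study asked how the transcriptomes of the 2 types differ before and after maturation. All oocytes came from C57BL/6 females of 3 to 4 weeks collected 48 h after PMSG, a gonadotropin that stimulates follicle growth. All were injected with FBL–GFP mRNA, which marks the nucleolus, kept 6 h in Cilostamide (10 µM), which blocks the resumption of meiosis, and sorted into SN and NSN by the FBL–GFP pattern of the nucleolus. SN-MII and NSN-MII oocytes were matured in culture from oocytes sorted in this way. The injected mRNA and the 6 h in the drug before sorting are therefore common to all 4 groups, and no uninjected oocyte was analysed here. Maturation in the study followed release from the drug, so MII oocytes also had further culture without it. In the stage comparisons this cannot be told apart from maturation itself. NSN-MII oocytes stand only for those NSN GV oocytes that reached MII. Whether the oocytes of a group came from different females is not given in the sources used here, so errors and p-values measure the spread between these oocytes only.

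In the oocyte, importin alpha and importin beta1 serve the nucleus while it is intact. After nuclear envelope breakdown they bind spindle assembly factors such as TPX2, and the small GTPase Ran releases these factors near chromatin. Kpna7 is known as the importin alpha of oocytes and early embryos, Kpna2 is abundant in many dividing cells, and Kpna1, Kpna3, Kpna4 and Kpna6 are broadly expressed in somatic tissues. The study saw a strong signal of new RNA in NSN GV oocytes and almost none in SN GV oocytes. During maturation mRNA decays and the length of the poly(A) tail changes as well. The part of decay or of transcription in the values below was not tested. The libraries were primed on the poly(A) tail, so less mRNA and a shorter tail cannot be told apart in any of the values below, and each value is relative to the other mRNAs of its library.

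Libraries held between 7140416 and 8846287 counts and between 11579 and 13333 genes with a count. NSN-MII 3 had the fewest genes with a count and the lowest TMM factor (0.799, against up to 1.26), and it is named below wherever a value rests on it. All 12 oocyte markers had a mean FPKM of at least 1 in every group. Of 14 cumulus and granulosa cell markers, 3 or 4 reached that level (Cyp19a1, Kitl, Nr5a2 and, in NSN GV oocytes, Inha), while Foxl2 and Ptx3 were listed at 0 in all libraries. Their summed FPKM was 27.6 to 37.8 in SN GV, 29.0 to 35.1 in NSN GV, 39.8 to 47.2 in SN-MII and 41.2 to 65.4 in NSN-MII oocytes, and the part of these cells in the results was not tested.

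The promoters of the 2 importin alpha genes with the highest levels in GV oocytes are shown first because they differ in base composition. They cover 300 bases around the RefSeq start (GRCm38.p6), with 50 of them after it, are written 5′ to 3′ on the minus strand, and carry the letters CCAAT or CAGGTG, or their reverse complements, in capitals.
Kpna2, chr11:106999476-106999775: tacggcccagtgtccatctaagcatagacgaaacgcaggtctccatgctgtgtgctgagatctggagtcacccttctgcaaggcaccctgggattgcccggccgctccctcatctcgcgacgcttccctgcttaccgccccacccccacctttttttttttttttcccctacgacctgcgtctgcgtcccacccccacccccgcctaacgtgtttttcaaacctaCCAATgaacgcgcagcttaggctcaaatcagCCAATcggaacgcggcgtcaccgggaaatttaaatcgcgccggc
Kpna7, chr5:145009587-145009886: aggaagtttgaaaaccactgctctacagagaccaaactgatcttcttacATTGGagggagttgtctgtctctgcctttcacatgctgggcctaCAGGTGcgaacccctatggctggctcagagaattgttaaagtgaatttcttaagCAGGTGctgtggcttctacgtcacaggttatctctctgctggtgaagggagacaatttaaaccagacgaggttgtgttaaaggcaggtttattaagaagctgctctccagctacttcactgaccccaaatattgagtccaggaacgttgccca
The Kpna2 promoter held 24 CpG dinucleotides, with an observed to expected ratio of 1.05 that exceeded 96.2% of 32851 promoters. The Kpna7 promoter held 4, with a ratio of 0.245 that exceeded 35.1% of promoters. This window holds for the RefSeq start of Kpna7, which lies 3 bases from the start of 1 of 6 GENCODE transcripts. The other 5 start 246 to 74394 bases away, and their promoters were not examined. The promoters of Kpna4 and Kpnb1, with ratios of 0.851 and 0.960, resembled that of Kpna2 in this respect, and the other 3 members are not in the table used. On both strands, CCAAT was found 2 times for Kpna2, 1 time for Kpna7, 2 times for Kpna4 and 3 times for Kpnb1, and 37.4% of all promoters of this length held it. CAGGTG, the letters of an E-box, was found 2 times for Kpna7 and in none of the other 3 (20.2% of promoters), and neither TATAAA (13.6%) nor TAATTG, the letters of a NOBOX element (8.0%), was found in these 4. A match describes letters and not a bound site.

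The ends of the mRNAs are shown because polyadenylation in the oocyte is read from the 3′ end. The last 30 bases up to and including the poly(A) signal, in capitals, were taken from GENCODE M21 transcripts.
Kpna2: ccctgtcatgtcctgtaaataaagATTAAA
Kpna7: tccaggtctagttcatacatttgtAATAAA
Kpna3: tatatgggcttaggttttgtaaccAATAAA
Kpnb1: tgataccaccacctttatcttctgAATAAA
The last signal of Kpna2 was ATTAAA, with an AATAAA shortly before it in the bases shown, and the last signal of the other 6 members was AATAAA. The 3′ UTR was shortest in Kpna2 (258 bases) and Kpna7 (740 bases), against 2420 bases in Kpna3, 2967 in Kpnb1, 3223 in Kpna1, 4012 in Kpna6 and 6940 in Kpna4. The letters TTTTAT or TTTTAAT of the cytoplasmic polyadenylation element were found in the last 150 bases of Kpnb1 only, and 24.4% of 9944 genes with an FPKM of at least 1 and an annotated 3′ UTR held them there. In Kpnb1 the match lay after the last poly(A) signal, with none before that signal in these bases.

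In FPKM, which is per length and so can be compared between genes, Kpna2 and Kpna7 were the highest of the 7 genes in GV oocytes, Kpna3 followed, Kpnb1 and Kpna6 were low, and Kpna1 and Kpna4 were near or at 0. This order was the same in the means of SN and NSN GV oocytes. In SN-MII oocytes the order was Kpna7, Kpna2, Kpna3, Kpnb1, and in NSN-MII oocytes it was Kpna7, Kpna3, Kpna2, Kpnb1. Kpna2 and Kpna3 overlapped within SN-MII oocytes, and Kpna7 and Kpna3 overlapped within NSN-MII oocytes, so these neighbours did not differ beyond their spread. The other neighbours among these 4 genes did not overlap within any group. Among Kpna6, Kpna1 and Kpna4, Kpna6 and Kpna1 overlapped in NSN-MII oocytes, and Kpna1 and Kpna4 overlapped in NSN GV oocytes. In CPM, counts scaled to the size of the library and not per length, the mean of Kpna3 stood above that of Kpna2 in SN-MII oocytes and above that of Kpna7 in NSN-MII oocytes. The second of these rested on NSN-MII 3, where Kpna3 had 814 and Kpna7 323 CPM, since Kpna3 was below Kpna7 in NSN-MII 1 (318 against 402) and NSN-MII 2 (355 against 420).

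**Figure D1:**
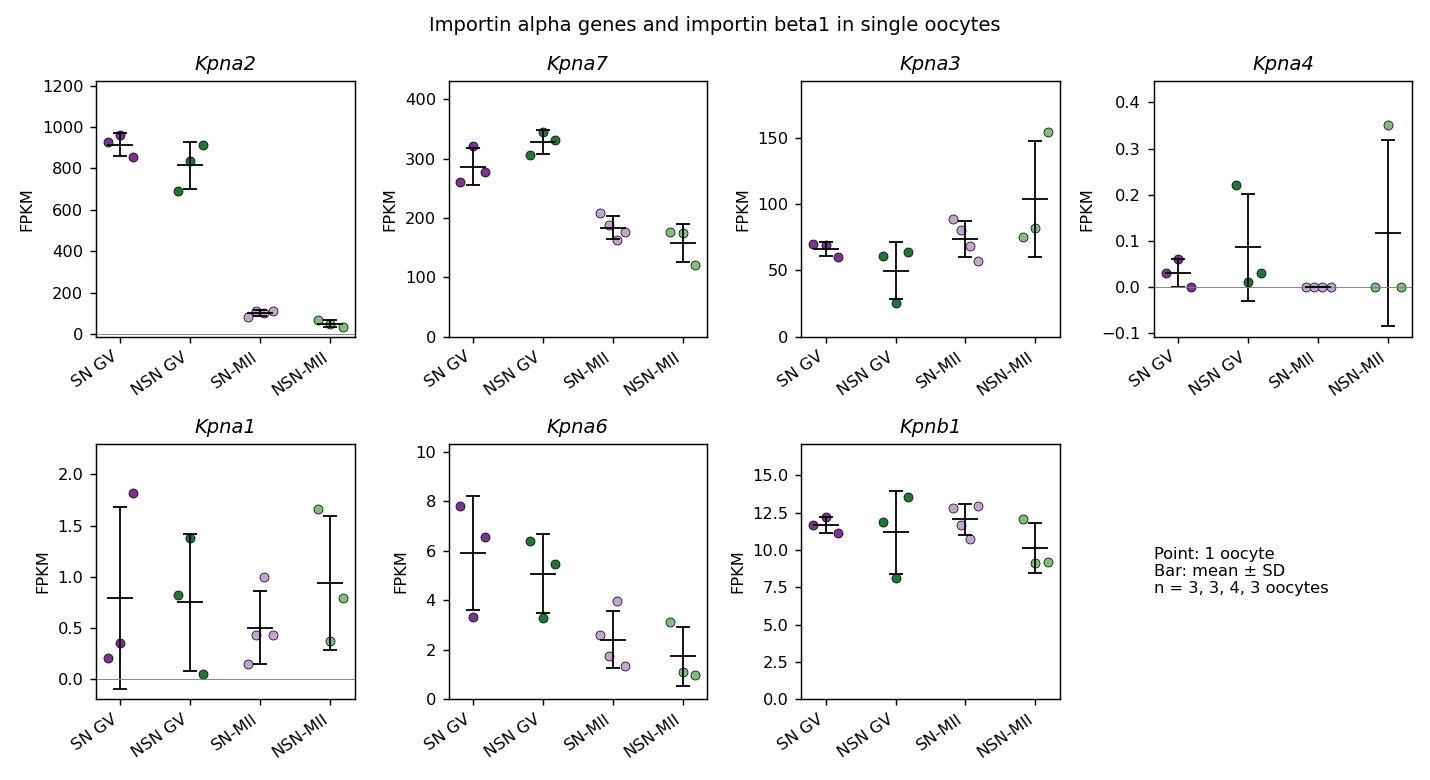
FPKM of the 7 genes in each oocyte (points), with mean ± SD as bars, in SN GV, NSN GV, SN-MII (4 oocytes) and NSN-MII oocytes, each panel on its own linear axis. Kpna2 falls from between 693 and 963 in GV oocytes to between 34.1 and 112 in MII oocytes, while Kpnb1 stays between 8.10 and 13.6.

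Kpna2, the adaptor for classical nuclear localization signals, lies at chr11:106988629-106999541 on the minus strand (mm10, GENCODE M21). It had 929, 963 and 853 FPKM in the 3 SN GV oocytes. The 3 NSN GV oocytes had 693, 836 and 915. The 2 types overlapped before maturation, and the fitted log2 fold change of NSN over SN was −0.18 (SE 0.16). The 4 SN-MII oocytes had 79.9, 112, 100.5 and 108 FPKM, and the 3 NSN-MII oocytes had 64.8, 49.5 and 34.1. Every MII oocyte was below every GV oocyte, and every NSN-MII oocyte was below every SN-MII oocyte. By mean CPM, Kpna2 was 8.54-fold lower at MII than at GV in SN oocytes (log2 fold change −3.09, SE 0.23) and 20.7-fold lower in NSN oocytes (−4.37, SE 0.27).

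Between the 2 types of MII oocytes, Kpna2 was 2.77-fold lower in NSN-MII by mean CPM (log2 fold change −1.47, SE 0.22) and 2.03-fold lower by mean FPKM. The difference ranged from −1.62 without SN-MII 1 to −1.04 in limma on log2(FPKM + 1). It was negative in all 14 alternatives, but the 2 groups did not overlap, so its sign could hardly turn. The difference of the 2 stage changes was −1.28 (SE 0.32). It ranged from −1.45 without NSN GV 1 to −0.86 in limma on log2(FPKM + 1) over 19 alternatives. All alternatives reuse these oocytes, so a sign that stays negative adds no support. In rank among features by mean FPKM, Kpna2 stood at place 91 in SN GV, 102 in NSN GV, 1062 in SN-MII and 1932 in NSN-MII oocytes.

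The gap between CPM and FPKM for Kpna2 came with a change in counts per FPKM, a value that follows the length RSEM assigns to a gene's transcripts and that should be flat when the mix of transcripts is the same. Set to the typical gene of each library, with the median oocyte at 1, it was 0.995 to 1.01 in the 6 GV oocytes and 0.994 to 1.01 in SN-MII 2, 3 and 4. It was 0.832 in SN-MII 1 and 0.707, 0.764 and 0.781 in the 3 NSN-MII oocytes. Thus 4 of 7 MII oocytes, including all 3 NSN-MII oocytes, had fewer Kpna2 counts for the same FPKM. Of 6849 genes with at least 20 counts in each library, 73.9% varied less in this value than Kpna2 did, so the variation was common among genes. Its part in the difference between NSN-MII and SN-MII oocytes was not tested, and every NSN-MII value was below every SN-MII value in both units.

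**Figure D2:**
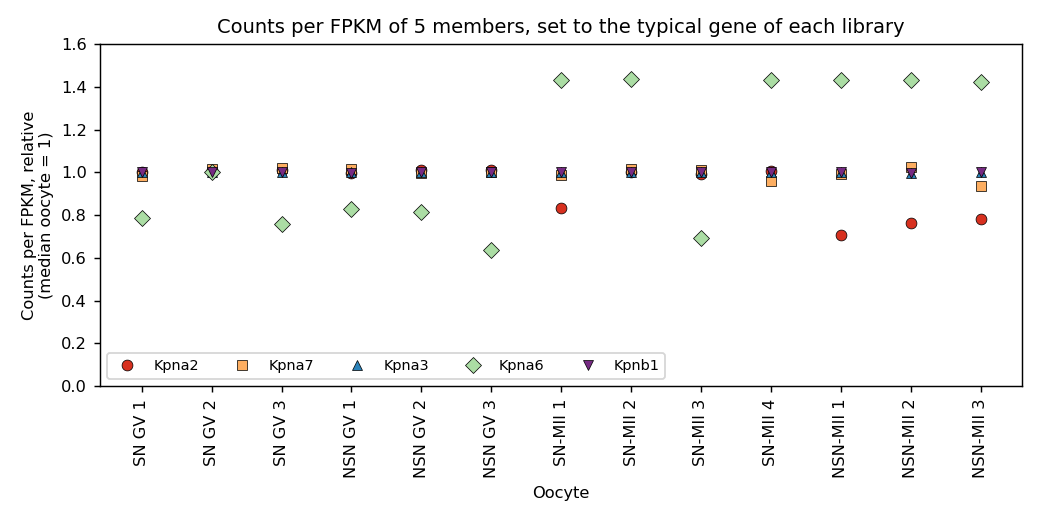
Counts per FPKM of 5 genes in each oocyte, relative to the typical gene of the library and to the median oocyte (1 on the linear y axis). Kpna2 lies between 0.707 and 0.832 in SN-MII 1 and the 3 NSN-MII oocytes, Kpna6 ranges from 0.638 to 1.43, and Kpna3 and Kpnb1 stay within 0.997 and 1.003.

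Kpna2 also has near-identical copies in the genome, to which reads can be assigned. At least 1 annotated transcript of 13 other genes or pseudogenes matched it over at least 200 bases at 90% identity. Among them were Gm10184 (99.9% over 1968 bases), Gm10259 (99.8% over 1590 bases) and Med20 (92.6% over 1891 bases). Gm10184 had 5.57 to 17.6 FPKM in GV and 0 to 4.34 in MII oocytes, or 0 to 3.73% of its sum with Kpna2 in each library. Med20 is a gene in its own right, and which of its transcripts hold the match was not examined. Over all its transcripts it had 36.8 to 50.4 FPKM in GV, 93.9 to 95.7 in SN-MII and 76.8 to 120 in NSN-MII oocytes. That level was near or above that of Kpna2 at MII, and how reads were divided between the 2 genes was not tested. With Gm10184 added, a sum formed after its values were seen, the Kpna2 level of NSN-MII oocytes was 2.04-fold below that of SN-MII oocytes, against 2.03-fold without it.

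Kpna7, the importin alpha known from oocytes and early embryos, is annotated at chr5:144983519-145084030 on the minus strand, where it overlaps 6 other features including Arpc1a and Gm4871. It had 261, 322 and 277 FPKM in SN GV and 306, 345 and 331 in NSN GV oocytes, and the types overlapped. It had 209, 187, 163 and 176 in SN-MII and 177, 175 and 121 in NSN-MII oocytes, which also overlapped. All MII values were below all GV values. The fall was 1.43-fold by mean CPM in SN oocytes (log2 fold change −0.51, SE 0.18) and 1.95-fold in NSN oocytes (−0.96, SE 0.19). NSN against SN gave 0.17 (SE 0.15) at GV and −0.29 (SE 0.16) at MII, and no sign changed in the alternatives. The SMART-seq2 protocol does not keep the strand, so reads of the overlapping genes on the plus strand cannot be told apart from those of Kpna7 where exons overlap. Gm4871 and Gm43561 lie on the minus strand like Kpna7, so for them the strand could not help in any protocol.

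Kpna3, an adaptor broadly expressed in somatic tissues (chr14:61365211-61439874, minus strand), did not fall at MII. It had 69.7, 69.1 and 60.2 FPKM in SN GV and 60.6, 25.1 and 63.4 in NSN GV oocytes. It had 88.6, 80.2, 68.4 and 56.9 in SN-MII and 75.0, 82.0 and 154 in NSN-MII oocytes. NSN GV 2 was the lowest and NSN-MII 3 the highest of all 13, and the groups overlapped in each comparison except between NSN GV and NSN-MII oocytes. In NSN oocytes Kpna3 was 2.43-fold higher at MII than at GV by mean CPM (log2 fold change 1.28, SE 0.34), and the log2 value was 0.69 without NSN-MII 3. In SN oocytes the value was 0.29 (SE 0.32). NSN against SN at MII gave 0.50 (SE 0.28), which went to −0.03 without NSN-MII 3, so this value rested on 1 oocyte. At GV it gave −0.45 (SE 0.30), and −0.14 without NSN GV 2.

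Kpna6 (chr4:129643980-129672767, minus strand) had 3.34 to 7.81 FPKM in SN GV, 3.30 to 6.41 in NSN GV, 1.36 to 3.95 in SN-MII and 0.970 to 3.12 in NSN-MII oocytes. In FPKM all NSN-MII values were below all NSN GV values, whereas SN-MII 3 lay above SN GV 2. In CPM the NSN groups overlapped, with NSN-MII 1 (18.8) above NSN GV 2 (11.9) and NSN GV 3 (15.2). The fitted log2 fold change of MII over GV was −0.68 (SE 0.38) in SN and −0.49 (SE 0.41) in NSN oocytes, and on log2(FPKM + 0.1) it was −1.29 and −1.62. Counts per FPKM of Kpna6 ranged from 0.638 to 1.43, and 96.3% of genes varied less, so the size of its change depended on the unit. NSN against SN gave −0.36 (SE 0.35) at GV and −0.20 (SE 0.41) at MII.

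Kpna1 (chr16:35978750-36037131, plus strand, with the antisense gene Gm15564) had 0.05 to 1.82 FPKM and 2 to 40 counts per library. All 4 groups overlapped, and its GV difference of 0.16 (SE 1.0) changed sign in 6 of 13 alternatives. Kpna4 (chr3:69067149-69127113, minus strand) had 0 to 7 counts in GV oocytes. It was listed at 0 in the 4 SN-MII oocytes and in 2 of the 3 NSN-MII oocytes, with 5 counts in NSN-MII 2. A count of 0, as in 7 of 13 oocytes, allows up to 3 counts per library. SN GV 1 and 2 and NSN GV 2 and 3, with 1 or 2 counts, were within that limit as well. Only NSN GV 1 (7 counts) and NSN-MII 2 (5 counts) lay above it, and Kpna4 was in no fitted comparison.

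Kpnb1, the partner of all the adaptors (chr11:97159714-97187881, minus strand), was the most even of the detected genes. It had 11.7, 12.2 and 11.2 FPKM in SN GV and 11.8, 8.10 and 13.6 in NSN GV oocytes. It had 12.8, 11.7, 10.8 and 12.9 in SN-MII and 12.1, 9.12 and 9.19 in NSN-MII oocytes. The 4 groups overlapped throughout. The fitted log2 fold change was −0.08 (SE 0.22) for NSN over SN at GV, −0.31 (SE 0.18) at MII and 0.20 (SE 0.21) for MII over GV in SN oocytes, and in NSN oocytes the sign changed in 10 of 20 alternatives. The antisense gene Gm11583 matches it at 99.8% over 422 bases and had 0 to 4.06 FPKM in GV and 6.12 to 11.8 in MII oocytes, and reads on the shared bases cannot be assigned to a strand.

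Summed over the 6 importin alpha genes, the level was 1275 ± 79.7 FPKM (SD, n = 3) in SN GV and 1198 ± 125 (n = 3) in NSN GV oocytes, and 360 ± 23.8 (n = 4) in SN-MII and 314 ± 6.93 (n = 3) in NSN-MII oocytes. The 2 types overlapped at GV. At MII every NSN oocyte (308 to 321 FPKM) was below every SN oocyte (337 to 382 FPKM). This separation did not hold in CPM, where the sum of NSN-MII 3 lay above those of the SN-MII oocytes. Its Kpna3 was 814 CPM, against 288 to 414 in SN-MII oocytes. The sum was 90.02 to 149 times Kpnb1 in GV oocytes and 26.5 to 33.8 times Kpnb1 in MII oocytes, with overlap between the types at both stages. Kpna2 made up 64.9 to 73.3% of the sum in GV, 21.0 to 31.6% in SN-MII and 10.95 to 20.1% in NSN-MII oocytes. Kpna7 made up 20.6 to 28.7% in GV and 38.9 to 56.8% in MII oocytes. Kpna3 made up 2.08 to 5.68% in GV and 16.6 to 49.6% in MII oocytes, and the top of that range was NSN-MII 3. The main adaptor by FPKM was Kpna2 in all 6 GV oocytes, Kpna7 in 6 of 7 MII oocytes, and Kpna3 in NSN-MII 3. Shares computed from counts moved 14 of 24 group shares by more than 1 SD, since the genes differ in length.

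**Figure D3:**
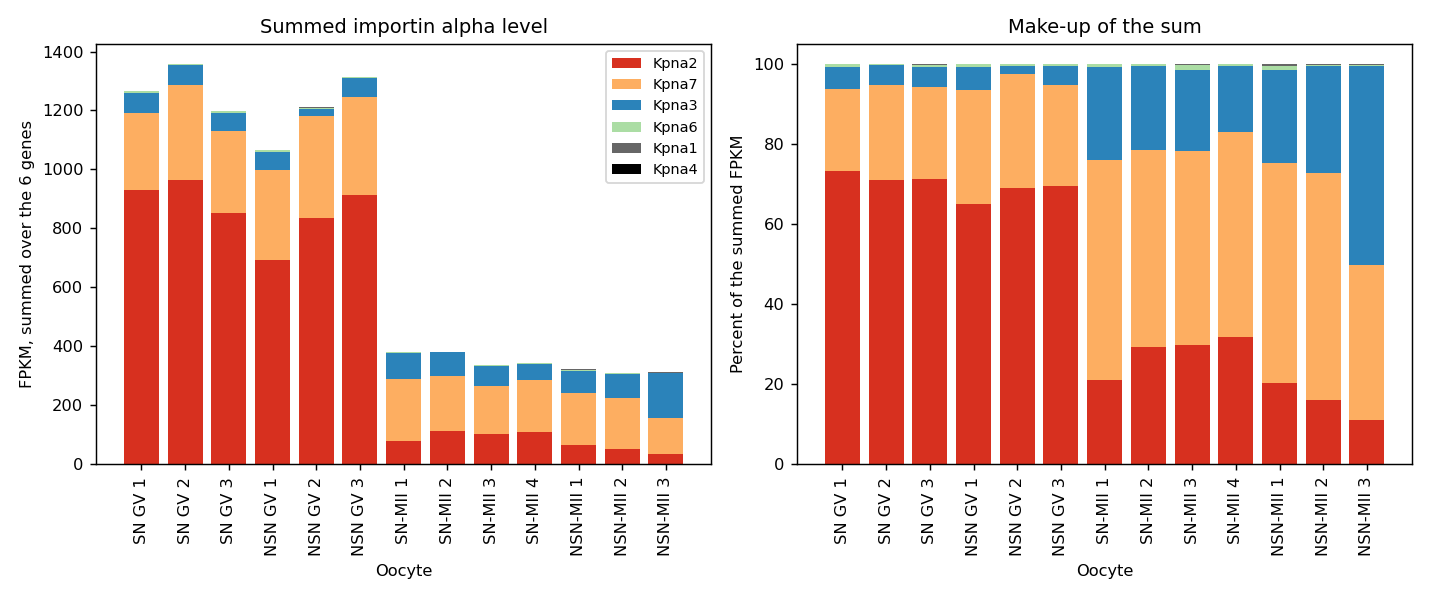
Summed FPKM of the 6 importin alpha genes in each oocyte (left, stacked bars from 0) and the percent of that sum held by each gene (right). GV oocytes reach 1067 to 1358 with 64.9 to 73.3% Kpna2, and MII oocytes reach 308 to 382 with Kpna7 as the largest share except in NSN-MII 3.

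The counts of calls by edgeR's quasi-likelihood test (adjusted p under 0.05) are given with those of all genes, and nothing is read from them since the members were chosen on these contrasts. For NSN against SN at GV, 0 of 6 tested members and 0 of 10839 genes (0%) were called, with 190 genes (1.75%) and no member at an unadjusted p under 0.05, and DESeq2 and limma also called 0. At MII, 1 of 5 tested members, Kpna2, and 26 of 10028 genes (0.259%) were called, 25 of them lower (0.249%) and 1 higher (0.00997%) in NSN-MII oocytes, and 9.38% of genes had an unadjusted p under 0.05. For MII against GV in SN oocytes, 2 of 6 members (Kpna2 and Kpna7, both lower) and 56.3% of 11375 genes were called, 31.2% lower and 25.1% higher. In NSN oocytes, 3 of 6 members (Kpna2 and Kpna7 lower, Kpna3 higher) and 56.3% were called, 30.8% lower and 25.4% higher. For the difference of the stage changes, 0 of 6 members and 2 of 11375 genes (0.0176%) were called, with 2 members and 5.33% of genes at an unadjusted p under 0.05. The stage comparisons of the 2 types set different libraries against each other but share 1 fit of all 13, its filter and its dispersion. The median log2 fold change over all genes was −0.12 for MII over GV in NSN and −0.08 in SN oocytes, a shift that the values of single genes contain.

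**Figure D4:**
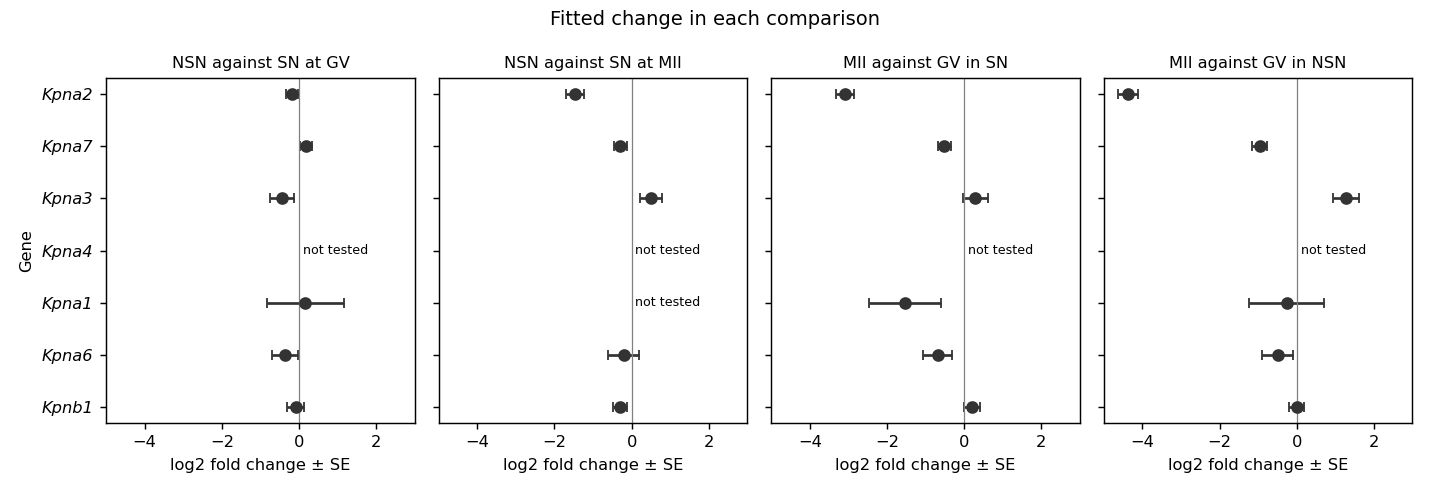
Fitted log2 fold change ± SE of each member in 4 comparisons, in edgeR's model. Kpna2 is at −0.18, −1.47, −3.09 and −4.37, Kpnb1 lies within 0.31 of 0, and Kpna4 (all 4) and Kpna1 (at MII) were not tested.

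The partners of the importins were not used to choose the members and were tested over all genes. Their lists were made with earlier results of these data known, so their calls are no independent support. They are 62 genes in 4 lists: the Ran cycle, which supplies the direction of transport, the other importins and exportins, the nucleoporins that build the pore, and spindle assembly factors known or thought to be regulated by importins or Ran. Between NSN and SN oocytes, 0 of 60 tested partners were called at GV (1 at an unadjusted p under 0.05, and 0 in DESeq2 and limma) and 1 of 59 at MII (1.69%, against 0.259% of all genes). At MII 9 of 59 had an unadjusted p under 0.05, against 9.38% of all genes, and 7 of these were among the 23 nucleoporins, whose median log2 fold change was −0.17. The median of the partners was −0.05 at GV, against 0.01 over all genes, and −0.03 at MII, against 0.02.

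The partner called at MII was Tacc3, a spindle factor that stabilizes microtubules. It had 64.0, 48.2, 54.1 and 39.0 FPKM in SN-MII and 161, 91.7 and 131 in NSN-MII oocytes. All NSN-MII values were above all SN-MII values (log2 fold change 1.29, SE 0.22, adjusted p = 0.0406), while Kpna2 differed in the other direction. The call held in 7 of 12 other fits on counts. Limma on FPKM did not make it, and on counts it was lost without SN-MII 2, 3 or 4, without NSN-MII 1 and with the replicate number as a block, where the adjusted p was 0.200, the highest over these fits on counts. Without NSN-MII 3, where the calls over all genes went from 26 to 233, 8 partners were called, among them Ran (0.79) and 6 nucleoporins, all lower (−1.19 to −0.67). With all libraries DESeq2 called 4 partners and 217 of all genes, and of the partners Nup107, Nup160 and Nup205 were lower in NSN-MII oocytes. The cause of these changes was not tested.

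Between stages, 36 of 61 partners were called in SN oocytes (59%, against 56.3% of all genes), 21 higher and 15 lower at MII. In NSN oocytes 35 were called (57.4%, against 56.3%), 21 higher and 14 lower. The shares were near those of all genes. Among nucleoporins, 12 of 23 were higher and 2 lower in SN oocytes, with a median log2 fold change of 0.87 against −0.08 over all genes. In NSN oocytes 10 were higher and 2 lower, with a median of 0.59 against −0.12. Of 8 Ran cycle genes, 2 were higher and 3 lower in both types. Of 18 other importins and exportins, 2 were higher and 6 lower in SN oocytes, and 4 were higher and 5 lower in NSN oocytes. Of 12 spindle factors, 5 were higher and 4 lower in both types.

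In the Ran cycle, Ranbp1, a cofactor of RanGTP hydrolysis, fell from between 24.9 and 37.0 FPKM in GV to between 2.84 and 4.93 in MII oocytes. Its log2 fold change was −2.95 (SE 0.31, adjusted p = 6.34e-07) in SN and −2.96 (SE 0.34, adjusted p = 2.77e-06) in NSN oocytes. Rangrf (−3.17, SE 0.59, and −2.34, SE 0.63) and Ranbp3, a cofactor of nuclear export (−1.58 and −1.78), also fell in SN and NSN oocytes. Rangrf had only 2.74 to 11.5 counts in MII oocytes, near the floor of 3 counts, so the size of its fall is uncertain. Rcc1, the chromatin-bound exchange factor that makes RanGTP, rose by 1.04 (SE 0.27, adjusted p = 0.00406) in SN oocytes. In NSN oocytes it rose by 0.80 (SE 0.29, adjusted p = 0.0246), but its groups overlapped and the call held in 13 of 18 other fits on counts, being lost without NSN GV 2 or 3 or NSN-MII 1 or 3 and with only the NSN libraries in the fit. Ran had 35.9 to 124 FPKM in GV and 45.3 to 126 in MII oocytes and passed the test in no comparison, with stage values of 0.01 (SE 0.34) in SN and 0.14 (SE 0.37) in NSN oocytes. Rangap1, which triggers GTP hydrolysis by Ran, had stage values of 0.45 (SE 0.38) and 0.34 (SE 0.40) and passed in none.

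Cse1l, the exportin that returns importin alpha to the cytoplasm, had 12.9 to 28.3 FPKM in GV and 15.6 to 29.8 in MII oocytes. Its stage values were 0.44 (SE 0.24, adjusted p = 0.137) in SN and 0.13 (SE 0.26, adjusted p = 0.678) in NSN oocytes, so neither passed. Xpo1, the exportin for leucine-rich export signals, had a value of −0.78 (SE 0.34, adjusted p = 0.0608) in SN and −0.25 (SE 0.37) in NSN oocytes. Snupn, the adaptor that imports snRNPs with importin beta1, fell from between 88.3 and 137 FPKM in GV to between 5.99 and 11.8 in MII oocytes. Its log2 fold change was −3.13 (SE 0.23, adjusted p = 1.43e-08) in SN and −3.81 (SE 0.27, adjusted p = 2.17e-08) in NSN oocytes. The importins Ipo9 (−2.14 and −2.10) and Ipo4 (−1.94 and −2.13) also fell in SN and NSN oocytes.

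Of the nucleoporins, Nup153, a basket protein that binds importins, rose by 1.54 (SE 0.32, adjusted p = 0.000737) in SN and 1.27 (SE 0.34, adjusted p = 0.00415) in NSN oocytes. Nup50, which helps to release cargo from importin alpha, had values of −0.04 (SE 0.22) and 0.43 (SE 0.24) and passed in none of the comparisons. The membrane nucleoporins Ndc1 (1.70 and 1.77) and Pom121 (1.47 and 1.25) rose in SN and NSN oocytes, as did Ahctf1 (1.30 and 1.92), which starts pore assembly on chromatin. Nup133, of the outer ring, fell, with log2 fold changes of −3.50 (SE 0.52) and −3.80 (SE 0.58). It had 55.6, 44.7 and 1 counts in NSN-MII 1, 2 and 3, the last below the floor of 3 counts. The size of its fall in NSN oocytes is therefore uncertain. Of the spindle factors, Tpx2, an activator of Aurora A that importin alpha holds inactive, rose from between 69.0 and 92.6 FPKM in GV to between 130 and 179 in MII oocytes. Its values were 1.10 (SE 0.21, adjusted p = 0.000339) in SN and 0.92 (SE 0.22, adjusted p = 0.00203) in NSN oocytes. Kif18a, a kinesin, rose by 1.22 and 1.57, whereas Nusap1 fell by 2.77 and 2.25, and Tacc3 fell by 4.21 and 2.95. For the genes named here as called between stages, the call held in all 18 other fits on counts, except for Rcc1 in NSN oocytes. The difference of the stage changes was called for 0 of 61 partners (3 at an unadjusted p under 0.05, and 0 in DESeq2 and limma), so that no partner was shown to change differently in the 2 types.

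**Figure D5:**
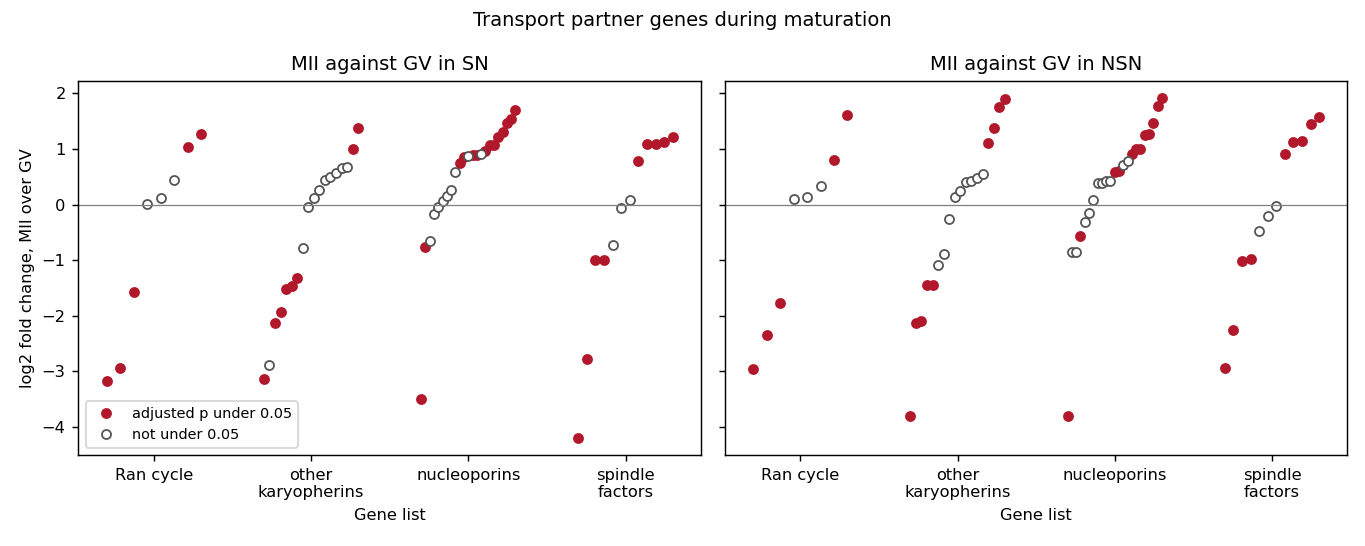
Log2 fold change of MII over GV for each tested partner gene, in SN (left) and NSN oocytes (right), ordered by value within each list, with genes at an adjusted p under 0.05 filled. Of 61 genes, 36 are filled in SN and 35 in NSN oocytes.

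The genes whose pattern over the 13 oocytes was most like that of each member were found by the root mean square difference of centred log2(FPKM + 1), as a description. The likest to Kpna2 were Lsm6 (0.25 on the log2 scale), Trir (0.27) and Aatf (0.27) among 11523 genes, against an SD of 1.82 of Kpna2 itself. Lsm6 averaged 84.6 FPKM in SN GV, 89.3 in NSN GV, 9.28 in SN-MII and 4.49 in NSN-MII oocytes. Its lower mean in NSN-MII oocytes comes with its choice by likeness over these same oocytes and is no further support. The likest to Kpna7 were Vps26a (0.17), Ints12 (0.17) and Dnah8 (0.17), against an SD of 0.46. Those to Kpna3 were Ylpm1 (0.22), Zfp174 (0.25) and Ltn1 (0.25), against 0.54, and those to Kpna6 were Olfml1 (0.26), Csmd1 (0.30) and Dnttip1 (0.31), against 0.70. For Kpnb1 they were Arl14ep (0.14), Cers6 (0.14) and Pdcd7 (0.14), against an SD of 0.19. For Kpna1 they were B4galnt2, Bckdhb and Gm30108 (0.28 to 0.30, against 0.45), and for Kpna4 they were Cct8, Armc10 and Cdkal1 (0.13 to 0.14, against 0.13). For Kpnb1, Kpna1 and Kpna4 the distance was larger against the member's own SD than for the other 4 members, so the likeness says little for these 3 genes.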

How the data were processed

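RNA-seq values of 13 single oocytes were analysed, 1 library per oocyte, grouped by the deposited sample labels. The authors made cDNA with SMART-seq2 and Nextera. The submitters' processing notes name Trim Galore 0.4.4, Bowtie2 2.3.5, RSEM 1.2.28, DESeq2 1.20.0 and mm10. Expected counts were deposited by the authors in 1 table per stage, as RSEM gives them with multi-mapped reads shared out (9.27 to 14% of values were not whole), and were rounded. FPKM values were deposited by the authors in 1 table. Levels and shares are in FPKM, and CPM were scaled by TMM.

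Genes were filtered with filterByExpr and tested by edgeR 4.0.16 (R 4.3.3), quasi-likelihood, with Benjamini-Hochberg adjustment over all genes tested and a threshold of 0.05. The within-stage comparisons used the libraries of that stage, and the stage comparisons and the interaction used all 13. The common biological coefficient of variation was 0.352 at GV, 0.344 at MII and 0.364 over all, so the spread between oocytes, not depth, set the precision of the abundant genes. In simulated data with 200 genes changed by 2 on the log2 scale, 140 were called at GV, 158 at MII, 131 and 129 between stages in SN and NSN, and 69 in the interaction, with 8, 14, 5, 2 and 4 unchanged genes.

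The members and lists were chosen with earlier results of these data known. Partners named were Ran, Rcc1, Rangap1, Cse1l, Xpo1, Nup50, Nup153 and Tpx2, and per list and comparison up to 3 called genes of the largest change whose groups did not overlap in CPM, plus the genes called at MII under another setting, named after their values were seen. Alternatives were DESeq2 1.42.0, its size factors in edgeR, no count filter, other libraries in the fit, a replicate block, limma 3.58.1 on log2(FPKM + 1) and log2(FPKM + 0.1), and leaving out each library. Copies were sought with BLAST 2.17.0+, coordinates came from GENCODE M21 on mm10, and promoters came from RefSeq. Reads, imaging and maturation rates were not analysed here. Intervals of counts cover counting error only.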

Additional observations from a re-analysis of the deposited data

How the results depend on the processing

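The stage comparisons kept their counts within 1.5 times under every alternative run (all genes 5463 to 6714 in SN and 5847 to 6426 in NSN oocytes when 1 library was left out, partners 33 to 40 and 29 to 37). For NSN against SN at GV the count was 0 in all of them (0 to 0 for all genes and for partners when 1 library was left out). The 26 genes called at MII became 217 with DESeq2, 89 with no count filter, 69 with all 4 groups in 1 fit, 9 and 5 in limma on log2(FPKM + 1) and log2(FPKM + 0.1), and 2 to 233 when 1 library was left out, with 2 without NSN-MII 1 and 233 without NSN-MII 3. The 1 partner at MII became 4 with DESeq2, 2 with no filter, 0 and 0 in limma, and 0 to 8. The 2 genes of the interaction became 39 with DESeq2, 6 with no filter and 0 to 12, the last without NSN-MII 3, and partners stayed at 0 to 0. The cause was not tested.

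Groups share replicate numbers, but same-numbered libraries did not deviate together (correlations of −0.44 to 0.21), so the numbers were not read as pairs. With the replicate block, 2 genes and 0 partners were called at MII, 0 at GV, 5623 and 6151 between stages in SN and NSN oocytes (34 and 34 partners) and 2 in the interaction.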
